A study of Mus musculus with 15 samples.

Results

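The comparison described here set the ventral midbrain of the mouse embryo against its dorsal midbrain. Its members are 6 of the 15 RNA-seq libraries of a study of brain regions at stage E12.5, namely 3 of ventral midbrain and 3 of dorsal midbrain, taken by the region in the sample titles. The other 9 libraries, of the alar plate, the forebrain and the hindbrain, entered only an alternative fit and the recovery of read numbers. All embryos, in both groups, were C57bl/6 mice with a TH-GFP reporter, in which the promoter of the tyrosine hydroxylase gene drives green fluorescence. Tissue was dissected under a microscope, so each library mixes all the cells of its region, and 200 ng of RNA went into each library. The labels name no sort of the fluorescent cells, and nothing states that the libraries of a region are from different embryos or litters. The p-values below therefore cover only the scatter of these libraries, part of which may be technical.

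The neural tube is patterned along its dorsoventral axis by secreted signals. Sonic hedgehog from the floor plate, the strip of cells at the ventral midline, induces ventral fates, while Wnt and BMP proteins from the roof plate favour dorsal ones. In the midbrain the floor plate is itself neurogenic: its progenitors give rise to dopaminergic neurons, with oculomotor and red nucleus neurons born beside them. The dorsal midbrain forms the tectum, where the colliculi arise.

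The values are RPKM, a read number scaled by gene length and by the size of the library, so levels can be set beside each other between genes. The read numbers recovered from them were between 8330771 and 10784227 in the ventral libraries and between 10703549 and 11414020 in the dorsal ones. For a gene of median length, 3 reads correspond to at most 0.115 RPKM in these libraries, and to less in a longer gene. A value resting on so few reads was not told from 0, which covers counting error only. The 3 ventral libraries had Pearson correlations of 0.991 to 0.994 with each other across genes on the log2(RPKM + 1) scale. Dorsal midbrain 1 and 2 had one of 0.995, but dorsal midbrain 3 had 0.967 and 0.971 with them, and it also lay nearest to the ventral libraries, at 0.930 to 0.935. Results that turn on that library are given with and without it. As a check on tissue from other regions, none of the 39 Hox genes reached 1 RPKM in 3 libraries. These genes mark the spinal cord and the hindbrain except its most anterior part. They therefore could not show tissue from the hindbrain next to the midbrain. Of 16 forebrain genes 2 were tested and both were higher ventrally, or 1 without ventral midbrain 2, dorsal midbrain 1 or dorsal midbrain 2. Their list summed to 30.5, 32 and 38.7 RPKM in the ventral libraries and to 16, 17 and 29.5 RPKM in the dorsal ones, with dorsal midbrain 3 nearest to the ventral range. Of 11 further hindbrain genes 2 were tested and 1 was higher, and that list summed to 5.41 to 9.88 RPKM ventrally and 3.58 to 5.94 RPKM dorsally. The part of such tissue in the results was not tested. Xist, the RNA of the inactive X chromosome, was at 67.1, 62.6 and 0.217 RPKM in ventral libraries 1 to 3 and at 78.7, 75.2 and 0.154 RPKM in dorsal libraries 1 to 3, so 1 library of each group lacked it.

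Of the 24264 genes in the table, 13278 had at least 1 RPKM in at least 3 of the 6 libraries and were tested with limma on log2(RPKM + 1). Genes with an adjusted p under 0.05 after Benjamini-Hochberg adjustment over all of them were called. Differences are ventral minus dorsal on the log2(RPKM + 1) scale. Adding 1 makes the changes of genes at low levels look smaller than they are, and where 1 region is near 0 the size of the difference is set by the level in the other. A total of 5266 genes were called, or 39.7% of those tested, with 2235 (16.8%) higher and 3031 (22.8%) lower in the ventral midbrain. Rescaling the libraries by their median ratio turned this split round, to 2546 higher and 2411 lower. The median difference over all genes tested was -0.06, and median-ratio scaling moved it to -0.01. Large differences were fewer: 683 called genes were higher and 511 lower by at least 1 log2 unit, and 20 were higher and 21 lower by at least 4. Leaving out dorsal midbrain 3 brought the count to 7958 (59.9%), and leaving out any other library lowered it, to between 2456 without ventral midbrain 2 and 3676 without ventral midbrain 1. Where the call of a named gene was lost without a library, that library is named beside it.

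**Figure D1:**
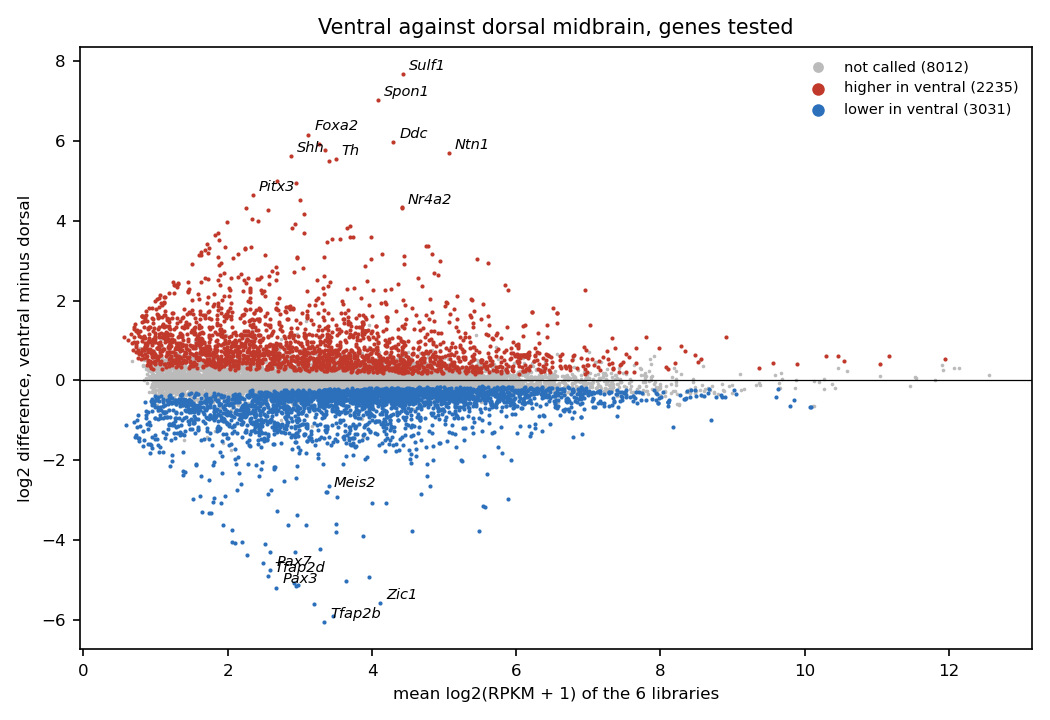
Log2 difference (ventral minus dorsal midbrain) of each gene tested against its mean log2(RPKM + 1) over the 6 libraries. Red points are the 2235 called higher ventrally, blue points the 3031 called lower and grey points the others. The farthest points are Sulf1 at 7.66 on the ventral side and Tfap2b at -6.04 on the dorsal side.

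The dissections matched their labels at most, but not all, of the factors chosen to check them. Foxa2, the forkhead factor of the floor plate, was at 75.5, 70.3 and 70.8 RPKM in the ventral libraries and at 0.0388, 0 and 0.0389 RPKM in the dorsal ones. Pax7, a paired-box factor of dorsal neural progenitors, was at 0.0507, 0.312 and 0.127 RPKM in the ventral libraries and at 36.8, 40.4 and 18.3 RPKM in the dorsal ones. In both genes the groups were far apart, and each region held next to none of the other's factor. The ventral markers Lmx1a, Shh, Th, Pitx3 and Nkx6-1 and the dorsal markers Pax3, Zic1, Lhx2 and Tfap2b, given below, also kept the groups apart. Groups that do not overlap were common: of all genes tested, 22.2% had the ventral libraries all above and 32.7% all below the dorsal ones. The midbrain factor Otx2 was present in all 6 libraries, between 44.3 and 65.2 RPKM in the ventral and between 80.1 and 161 RPKM in the dorsal ones. En1, another midbrain factor, was at most 0.799 RPKM in the dorsal libraries. The dorsal marker Meis2 was at 59.9, 56.3 and 4.86 RPKM in dorsal midbrain 1 to 3, so it was low in dorsal midbrain 3.

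Genes of the floor plate and of dopaminergic progenitors gave the largest differences towards the ventral side. Of the 18 members of that list that were tested, 16 (88.9%) were higher and none was lower (1 without dorsal midbrain 3). Of all genes tested 16.8% were higher and 22.8% lower. The median difference of the list was 4.06, against -0.06 over all genes tested. This list and those below were drawn up with earlier results of these data known, so their counts are descriptions and no tests. Sulf1, which removes sulfate groups from heparan sulfate outside the cell, led all genes with 303, 280 and 336 RPKM in the ventral libraries, against 0.505, 0.246 and 0.838 RPKM in the dorsal ones. Its difference was 7.66 ± 0.15 (SE, n = 3 per group) with a limma adjusted p of 7.1e-07. Its relative Sulf2 was at 136, 132 and 136 RPKM ventrally and was well expressed dorsally too, at 15.1, 15.9 and 19.5 RPKM, a difference of 2.93. Spon1, which encodes the floor plate protein F-spondin, was at 180, 177 and 221 RPKM in the ventral libraries and at most 0.995 RPKM in the dorsal ones (7.02 ± 0.19, limma adjusted p = 2e-06). The 3 ventral values of each of these genes stood above all dorsal ones, as in 22.2% of all genes tested.

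Foxa1 and Foxa2, paired forkhead factors, were almost equal in level in the ventral libraries. Foxa1 was at 77.1, 74.8 and 71.4 RPKM there and at 0.105, 0.0992 and 0.553 RPKM in the dorsal libraries, a difference of 5.93 against 6.16 for Foxa2. The LIM homeodomain factor Lmx1a, which specifies dopaminergic progenitors, was at 81.8, 74.4 and 68.6 RPKM in the ventral libraries and at 0.226, 0.261 and 0.706 RPKM in the dorsal ones (5.78 ± 0.14, limma adjusted p = 1.4e-06). Its paralogue Lmx1b differed by less, 3.59, with 44.6, 44.7 and 46.2 RPKM ventrally and 2.49, 3.09 and 2.96 RPKM dorsally. Corin, a serine protease used as a surface marker of the midbrain floor plate, was at 41.2, 32.4 and 33.1 RPKM ventrally and at most 0.222 RPKM dorsally, and Dmrta2, a DM domain factor, differed by 4.52. The proneural factor Ferd3l was at 38.6, 30.8 and 32.2 RPKM ventrally and at 1.58, 1.16 and 4.49 RPKM dorsally, with dorsal midbrain 3 the highest of the dorsal libraries. Msx1, a homeobox factor upstream of neurogenesis in dopaminergic progenitors, was only moderately higher, at 13.0, 12.8 and 10.9 RPKM ventrally and 6.3, 7.59 and 6.74 RPKM dorsally (difference 0.75, limma adjusted p = 0.0023). Its relative Msx2 was also higher ventrally, by 1.19, although it stands in the list of dorsal factors. The 2 tested members of the list without a call were Wnt1 (difference -0.32) and Sox6 (-0.33). Sox6 was called lower without dorsal midbrain 3 (-0.52, limma adjusted p = 0.00045).

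Promoter windows of 4 of the genes at the ends of the ranking are shown to let the ventral and dorsal factors be compared at their start sites. Each is the 300-base RefSeq window of build GRCm38.p6, from 250 bases before to 50 after a transcript start, on the gene's own strand. Foxa2 (chr2:148046920-148047219, minus strand, the first of 3 windows listed) and Foxa1 (chr12:57546062-57546361, minus strand) were higher ventrally. Tfap2b (chr1:19211804-19212103, plus strand) and Lhx2 (chr2:38339031-38339330, plus strand, the first of 2 listed) were lower. Capitals mark the only match to the forkhead motif TGTTTAC, here on the opposite strand as GTAAACA.
Foxa2: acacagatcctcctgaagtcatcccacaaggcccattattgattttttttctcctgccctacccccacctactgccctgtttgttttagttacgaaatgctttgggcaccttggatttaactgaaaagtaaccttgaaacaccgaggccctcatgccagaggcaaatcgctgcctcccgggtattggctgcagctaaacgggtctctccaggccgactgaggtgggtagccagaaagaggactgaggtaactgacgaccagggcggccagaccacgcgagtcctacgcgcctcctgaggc
Foxa1: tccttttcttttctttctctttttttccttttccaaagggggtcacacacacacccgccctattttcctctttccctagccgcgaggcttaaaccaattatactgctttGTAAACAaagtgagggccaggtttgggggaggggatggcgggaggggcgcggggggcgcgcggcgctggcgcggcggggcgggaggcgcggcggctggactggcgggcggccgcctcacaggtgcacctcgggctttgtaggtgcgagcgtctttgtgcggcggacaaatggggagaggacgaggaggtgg
Tfap2b: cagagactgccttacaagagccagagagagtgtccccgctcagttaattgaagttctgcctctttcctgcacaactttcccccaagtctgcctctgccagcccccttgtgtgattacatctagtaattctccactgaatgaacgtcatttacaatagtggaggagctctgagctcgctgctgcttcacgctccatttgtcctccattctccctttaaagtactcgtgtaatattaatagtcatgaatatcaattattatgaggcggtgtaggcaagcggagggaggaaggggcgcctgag
Lhx2: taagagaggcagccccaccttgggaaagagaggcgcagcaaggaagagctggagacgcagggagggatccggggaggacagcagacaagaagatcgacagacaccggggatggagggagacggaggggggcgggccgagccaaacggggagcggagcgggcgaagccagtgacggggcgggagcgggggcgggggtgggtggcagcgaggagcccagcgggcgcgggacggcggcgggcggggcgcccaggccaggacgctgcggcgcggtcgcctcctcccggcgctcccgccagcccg
The forkhead letters occur on either strand in 2.26% of the 9125 windows of genes tested here and in 3.55% of all 27025 windows of the table. The GLI core GGTGGTC occurs in 3.06% and 2.79%, and the homeodomain letters TAATTA in 2.27% and 5.31%. Windows were listed for 10 of the 15 genes with the largest ventral differences, of which Foxa1 held the forkhead letters and Th the GLI core. They were listed for 13 of the 15 genes with the largest dorsal differences, and none of the 3 motifs was in these windows. The GC share of the windows shown ranged from 48.3% in Tfap2b to 74.7% in Lhx2.

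Genes of the dopamine neurons themselves were higher as well. Of 22 members tested, 17 (77.3%) were higher and none was lower, against 16.8% and 22.8% of all genes. The median difference was 3.06. Without dorsal midbrain 3 the counts were 17 higher and 2 lower. Th was at 77.5, 81.7 and 68.9 RPKM in the ventral libraries and at 0.605, 0.571 and 0.793 RPKM in the dorsal ones (5.54 ± 0.09, limma adjusted p = 5.8e-07). Ddc, the decarboxylase that follows it, was above Th in level, at 144, 167 and 153 RPKM ventrally against 1.11, 1.6 and 1.82 RPKM dorsally. Gch1, the first enzyme of the synthesis of the cofactor of Th, differed by 3.33. The later enzymes of that cofactor's synthesis and recycling, Pts and Qdpr, were not called (0.14 and -0.20) and lay between 15.5 and 36.7 RPKM in all 6 libraries. Qdpr was called lower without dorsal midbrain 3 (-0.21, limma adjusted p = 0.026).

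Storage and reuptake genes followed in the order of lower levels. Slc18a2, the vesicular monoamine transporter, was at 43.5, 48.2 and 47.2 RPKM ventrally and at 1.77, 1.48 and 4.37 RPKM dorsally. Slc6a3, the dopamine transporter, was at 6.55, 11.1 and 9.88 RPKM ventrally and below 0.05 RPKM in every dorsal library. Drd2, a dopamine receptor, was at 2.82, 3.57 and 2.7 RPKM ventrally and at 0.891, 0.791 and 0.736 RPKM dorsally. The ventral libraries were all above the dorsal ones in each of these genes, as in 22.2% of all genes tested. Pitx3, a factor of maturing midbrain dopaminergic neurons, was at 20.4, 27.9 and 25.6 RPKM ventrally and at 0, 0.0552 and 0 RPKM dorsally (4.64 ± 0.13, limma adjusted p = 2e-06). En1, a homeodomain factor on which their survival depends, was at 67.0, 76.7 and 67.5 RPKM ventrally and at 0.456, 0.799 and 0.49 RPKM dorsally, a difference of 5.50. Chrna6, a nicotinic receptor subunit found on these neurons, differed by 3.21 and Vip, which encodes a neuropeptide, by 2.91. Of the receptors for the trophic factor GDNF, Gfra1 differed by 2.69 and Ret by 2.57. Aldh1a1, which marks a subset of mature dopamine neurons, was at 0.52, 0.92 and 0.785 RPKM in the ventral libraries and at 0 in the dorsal ones, too low for the test.

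Nr4a2, the nuclear receptor that drives the transmitter identity of dopaminergic neurons, was the member that depended most on 1 library. It was at 92.7, 99.7 and 89.1 RPKM in the ventral libraries and at 0.827, 0.781 and 32.6 RPKM in the dorsal ones, so dorsal midbrain 3 lay far above its pair yet below every ventral library. The difference of 4.31 ± 1.07 had a limma adjusted p of 0.02 and the call was lost without any 1 of the other 5 libraries, while without dorsal midbrain 3 the difference was 5.71 (limma adjusted p = 2.5e-09). In the same library Th, Pitx3 and Slc6a3 stayed at 0.793, 0 and 0.0244 RPKM.

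Other ventral neuron types were present beside the dopaminergic one. Of 11 tested genes of motor and red nucleus neurons, 10 (90.9%) were higher and none lower, against 16.8% and 22.8% of all genes. Their median difference was 2.41, and 1 was lower without dorsal midbrain 3. Lhx4, a LIM factor of motor neurons, was at 15.7, 15.4 and 13.1 RPKM in the ventral libraries and at 0 in all dorsal ones. Isl1 differed by 2.85, and the genes of acetylcholine use, Slc5a7 and Slc18a3, by 2.16 and 2.41. Pou4f1, which marks the red nucleus but also tectal neurons, was not called: it was at 27.4, 29.9 and 31.3 RPKM ventrally and at 71.7, 75.6 and 14.1 RPKM dorsally, where dorsal midbrain 3 fell below the ventral range. Without that library it was called lower (-1.29, limma adjusted p = 2.5e-06). In bulk samples such as these, fewer cells of a type and less RNA per cell cannot be told apart.

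Serotonergic genes were also found ventrally, with 7 of 9 tested members (77.8%) higher and 2 (22.2%) lower, against 16.8% and 22.8% of all genes. The share lower was thus near the background. The lower ones were Gata2 and Gata3, which GABAergic neurons of the midbrain also express, and 1 of them was lost without any 1 ventral library or without dorsal midbrain 2. Slc6a4, the serotonin transporter, was at 14.2, 25.6 and 20.2 RPKM in the ventral libraries and at 0.212, 0.286 and 0.243 RPKM in the dorsal ones. Fev and Tph2, a factor and the synthetic enzyme of serotonergic neurons, were at 9.27, 15.8 and 12 RPKM and at 6.18, 12.8 and 10.9 RPKM ventrally, against at most 0.0547 and 0.0897 RPKM dorsally. Ventral midbrain 1 was the lowest and ventral midbrain 2 the highest of the 3 ventral libraries in each of these 3 genes. Serotonergic neurons are born in the hindbrain next to the isthmus, and genes of the isthmus were higher too. Pax5 was at 9.92, 13.4 and 11.6 RPKM ventrally and at 0 in all dorsal libraries, and Fgf8 at 2.27, 2.89 and 2.36 RPKM against 0. Of the 14 tested genes of the midbrain and isthmus, 11 were higher and 1, Otx2, was lower by 1.27, a call lost without ventral midbrain 2, ventral midbrain 3 or dorsal midbrain 2. En2 was at 85.9, 87.7 and 86.6 RPKM ventrally and between 2.12 RPKM, in dorsal midbrain 3, and 13.8 RPKM dorsally. Whether the dissections reached equally far towards the isthmus was not tested.

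The ventral progenitor factors completed this side. All 7 tested members, which include Foxa1 and Foxa2, were higher ventrally, against 16.8% of all genes. Nkx6-1, a homeodomain factor of ventrolateral progenitors, was at 27.4, 24.3 and 23.5 RPKM in the ventral libraries and at 0.456, 0.301 and 0.274 RPKM in the dorsal ones. Nkx6-2 differed by 3.13, Sim1 by 2.46, Nkx2-2 by 2.34 and Nkx2-9 by 2.03. The levels of Nkx2-2, at 3.92, 4.55 and 5.25 RPKM, and of Nkx2-9, at 3.27, 2.77 and 3.22 RPKM, were far under those of Foxa2.

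**Figure D2:**
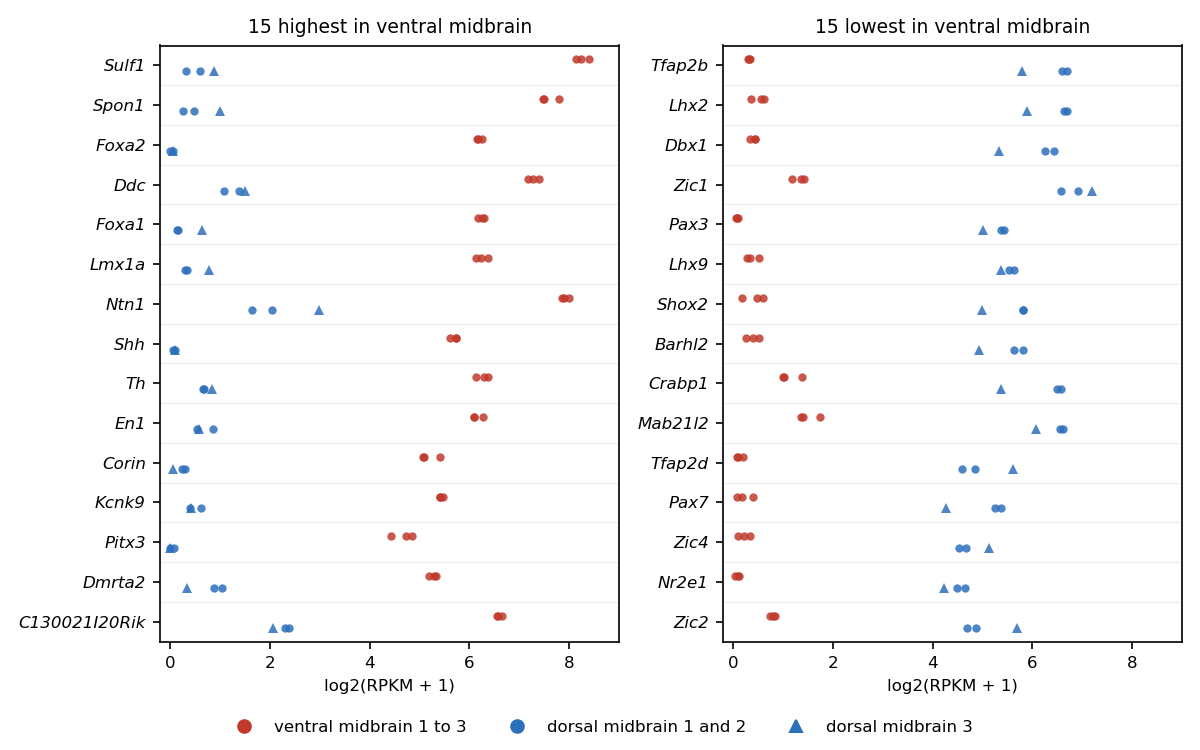
Levels, as log2(RPKM + 1), of the 15 called genes with the largest ventral (left) and dorsal (right) differences, 1 point per library, with the ventral libraries in red above the dorsal ones in blue and dorsal midbrain 3 as a triangle. The 3 ventral points lie apart from the 3 dorsal ones in every gene because the rule that chose the genes required it. The triangle is the dorsal point farthest from the ventral ones for Corin, Dmrta2 and C130021I20Rik on the left and for Zic1, Zic2, Zic4 and Tfap2d on the right.

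The largest differences towards the dorsal side were in transcription factors of the tectum and dorsal neural tube. Of 23 members tested, 20 (87%) were lower in the ventral midbrain and 1 (4.35%), Msx2, was higher, against 22.8% and 16.8% of all genes. The median difference was -4.36. Tfap2b, an AP-2 factor, was at 0.256, 0.25 and 0.229 RPKM in the ventral libraries and at 95, 102 and 54.6 RPKM in the dorsal ones (-6.04 ± 0.22, limma adjusted p = 7e-06). Lhx2 was at 0.279, 0.536 and 0.467 RPKM ventrally and at 97.9, 103 and 58.5 RPKM dorsally (-5.90 ± 0.21, limma adjusted p = 6.4e-06). Dbx1, a homeobox factor of progenitors, differed by -5.60. In these 3 genes dorsal midbrain 3 was the lowest dorsal library and still stood far above every ventral one.

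Zic1, Zic2, Zic4 and Zic5, zinc finger factors of dorsal neural tissue, were lower, and in each of these dorsal midbrain 3 was the highest dorsal library. Zic1 was at 1.67, 1.26 and 1.56 RPKM in the ventral libraries and at 93.8, 120 and 146 RPKM in the dorsal ones. The differences of Zic2, Zic4 and Zic5 were -4.30, -4.56 and -2.90. Pax3, the partner of Pax7 in dorsal progenitors, was at 0.0559, 0.043 and 0.0703 RPKM ventrally, which is 3 reads or fewer in each, and at 42.4, 40.1 and 31 RPKM dorsally. Lhx9, a LIM factor of postmitotic neurons, differed by -5.14, Shox2 by -5.13, Barhl2 by -5.07 and Tfap2d by -4.90. Mab21l2, required for dorsal midbrain growth in the mouse, was at 1.62, 2.34 and 1.56 RPKM ventrally and at 93.1, 96.9 and 65.9 RPKM dorsally. Nr2e1, an orphan nuclear receptor of neural progenitors, differed by -4.36 and Gsx1 by -4.05. Crabp1, which binds retinoic acid inside cells and is no transcription factor, was at 1.58, 1.01 and 0.994 RPKM ventrally and at 93.6, 89.6 and 40.3 RPKM dorsally.

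Meis2, a TALE homeodomain factor of the tectum, was high in dorsal midbrain 1 and 2 alone. It was at 3.45, 2.07 and 3.58 RPKM in the ventral libraries and at 59.9, 56.3 and 4.86 RPKM in the dorsal ones, so dorsal midbrain 3 sat just above the ventral range. The difference of -2.78 ± 0.86 (limma adjusted p = 0.04) lost its call without any 1 of the other 5 libraries and was -3.89 without dorsal midbrain 3 (limma adjusted p = 8.6e-07). Of the 11 genes of the PBX, MEIS and TGIF families tested, 3 (27.3%) were higher and 4 (36.4%) lower, against 16.8% and 22.8% of all genes. Meis1 and Meis3 were not called. Without dorsal midbrain 3 the counts were 3 and 5, and without any 1 of the other 5 libraries 1 or 2 were higher and 2 lower.

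Neurons with GABA as transmitter showed the reverse of the dopaminergic list. Of 14 tested genes, 9 (64.3%) were lower ventrally and 1 (7.14%) was higher, against 22.8% and 16.8% of all genes. The median difference was -1.13. The factor Tal2, which gives midbrain neurons their GABAergic fate, was at 9.81, 9.12 and 15.4 RPKM in the ventral libraries and at 185, 181 and 133 RPKM in the dorsal ones (-3.77 ± 0.21, limma adjusted p = 4.2e-05). Sox14 differed by -2.92, Helt by -2.04 and Tal1 by -1.96. The synthetic enzyme Gad1 was at 2.06, 4.23 and 4.74 RPKM ventrally and at 12.3, 14.7 and 17.9 RPKM dorsally, a difference of -1.81. Its partner Gad2 and the vesicular transporter Slc32a1 were not called (-0.82 and -1.15), although Slc32a1 was called without dorsal midbrain 1. In both, dorsal midbrain 3 was the highest library, at 29.1 and 24.3 RPKM. The count of higher members became 0 without any 1 of the libraries other than dorsal midbrain 3.

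Among glutamatergic genes the vesicular transporters separated. Slc17a6 did not differ detectably, at 29.0, 27.6 and 29.0 RPKM ventrally and 29.2, 27.1 and 32.8 RPKM dorsally (-0.05 ± 0.08). Slc17a8 was at 9.38, 13.2 and 12.1 RPKM in the ventral libraries and at most 0.0896 RPKM in the dorsal ones, a difference of 3.53. Of the 7 genes tested, this 1 (14.3%) was higher and 3 (42.9%) were lower, against 16.8% and 22.8% of all genes. The share higher was thus near the background. The lower ones were Barhl2, Barhl1 (-3.28) and Pou4f3 (-1.44). Without dorsal midbrain 3, 5 were lower.

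The hedgehog pathway was unequal along its own chain, from ligand to transcription factor. Shh, the ligand, was at 51.8, 48 and 51.7 RPKM in the ventral libraries and at 0.0625, 0.0295 and 0.0626 RPKM in the dorsal ones, which is 1 or 2 reads each (5.61 ± 0.08, limma adjusted p = 1.9e-07). The receptor Ptch1, which is also a target of the pathway, was higher by 1.47. It was at 22.6, 23.8 and 23.2 RPKM ventrally and at 6.2, 5.13 and 14.1 RPKM dorsally, with dorsal midbrain 3 the highest dorsal library, and its call (limma adjusted p = 0.012) was lost without ventral midbrain 2. The co-receptors went the other way. Boc was at 2.03, 2.05 and 2.03 RPKM ventrally and at 57.4, 59.6 and 20.8 RPKM dorsally (-3.81 ± 0.37), and Gas1 differed by -3.63. A further co-receptor, Cdon, was at 8.14, 7.9 and 7.93 RPKM ventrally and at 36.6, 42.7 and 7.53 RPKM dorsally. It was not called with dorsal midbrain 3 (-1.42, limma adjusted p = 0.087), and was called without it (-2.17, limma adjusted p = 3.4e-07).

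Of the transcription factors of this pathway, Gli3, which acts mainly as a repressor, was at 0.325, 0.42 and 0.392 RPKM in the ventral libraries and at 27, 24.2 and 17.9 RPKM in the dorsal ones (-4.10 ± 0.15, limma adjusted p = 7e-06). Gli2, the main activator, was at 0.228, 0.288 and 0.355 RPKM ventrally and at 10.6, 11.1 and 8.09 RPKM dorsally. Gli1, a target of active signalling, did not reach the level for the test, at 0.648, 0.748 and 0.568 RPKM ventrally and 1.01, 0.65 and 2.35 RPKM dorsally, and the target Hhip stayed below 0.4 RPKM throughout. The transducer Smo and the inhibitor Sufu were lower by small amounts, at -0.61 and -0.45. Both calls were lost without any 1 of ventral midbrain 2, ventral midbrain 3, dorsal midbrain 1 and dorsal midbrain 2, and that of Sufu also without ventral midbrain 1. In all, 3 of the 13 tested members were higher and 6 lower, against backgrounds of 16.8% and 22.8% of all genes.

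**Figure D3:**
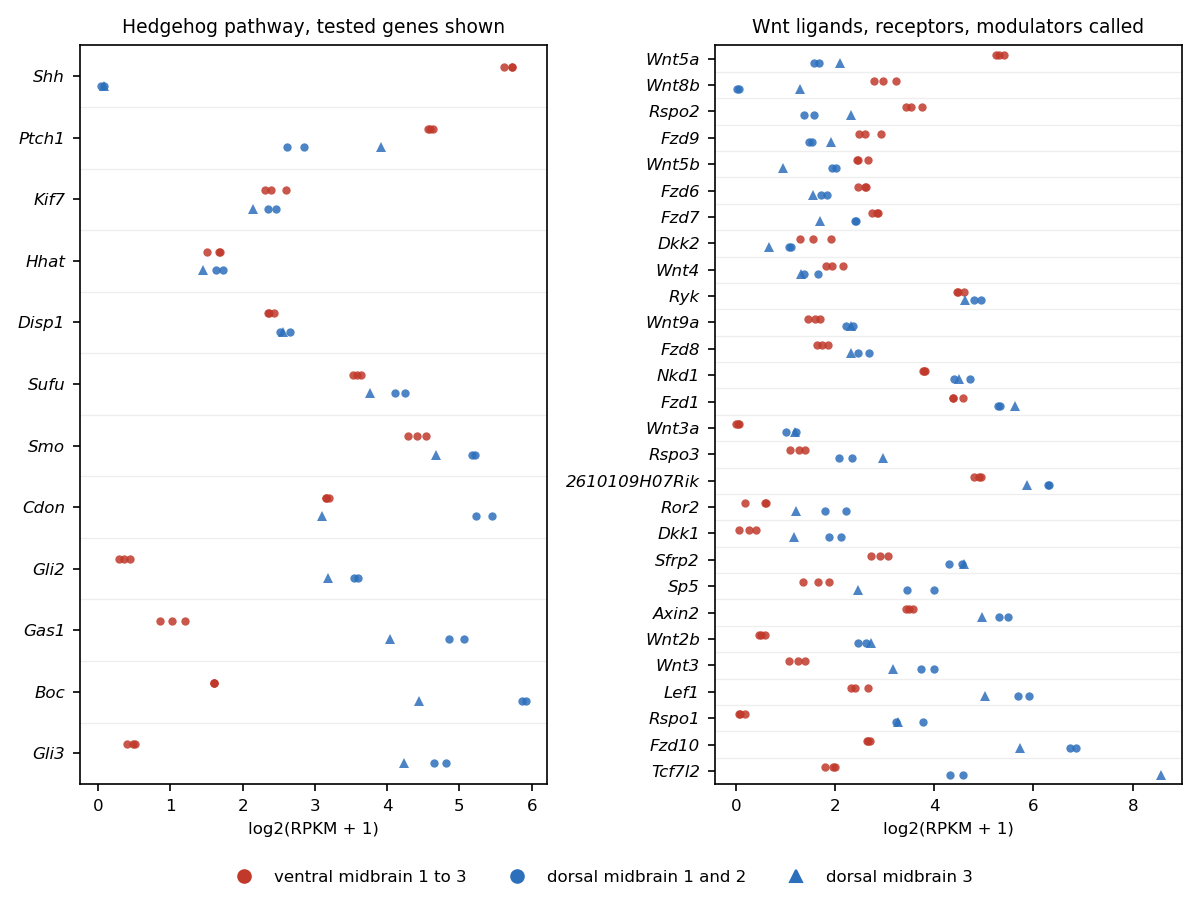
Levels, as log2(RPKM + 1), of 12 of the 13 tested genes of the hedgehog pathway (left) and of the called Wnt ligands, receptors, modulators and targets (right), 1 point per library, with ventral libraries in red above the dorsal ones in blue and dorsal midbrain 3 as a triangle. Genes run from the largest ventral difference to the largest dorsal one, from Shh to Gli3 and from Wnt5a to Tcf7l2. 2610109H07Rik is the table's name for Draxin.

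Wnt ligands divided between the regions, with 4 of 11 tested members (36.4%) higher ventrally and 4 (36.4%) lower, against 16.8% and 22.8% of all genes. Wnt5a, a ligand that promotes dopaminergic differentiation, was at 41.6, 38.4 and 37.1 RPKM in the ventral libraries and at 2.18, 1.97 and 3.31 RPKM in the dorsal ones (3.54 ± 0.14, limma adjusted p = 1e-05). Wnt8b was at 8.39, 6.87 and 5.85 RPKM ventrally and at 0.0497, 0.0235 and 1.45 RPKM dorsally. On the dorsal side Wnt3 differed by -2.39, Wnt2b by -2.08, Wnt3a by -1.11 and Wnt9a by -0.72. Wnt1, which is expressed along the dorsal midline and beside the floor plate, was not called, at 6.46, 5.18 and 4.59 RPKM ventrally and 6.26, 9.54 and 5.61 RPKM dorsally. Wnt4 was higher by 0.53, a call lost without ventral midbrain 1, ventral midbrain 3 or dorsal midbrain 1. Wnt5b was higher by 0.89, a call lost without any 1 ventral library or without dorsal midbrain 2.

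Among modulators and targets of Wnt signalling the share called lower, 50%, was above the 22.8% of all genes tested. Of the 20 modulators and targets tested, 10 were lower and 2 higher, and without dorsal midbrain 3 the counts were 14 and 4. The 2 higher became 1 without ventral midbrain 1, ventral midbrain 2, dorsal midbrain 1 or dorsal midbrain 2. Among 12 receptors, 5 (41.7%) were lower and 3 (25%) higher, against 22.8% and 16.8% of all genes. Fzd10 was at 5.28, 5.5 and 5.33 RPKM in the ventral libraries and at 106, 114 and 52.2 RPKM in the dorsal ones (-3.77 ± 0.28, limma adjusted p = 0.00015). Rspo1, a secreted enhancer of the pathway, was at 0.0573, 0.132 and 0.048 RPKM ventrally and at 8.35, 12.7 and 8.65 RPKM dorsally, while its relative Rspo2 was higher ventrally by 1.80. Axin2, a target in most tissues, was at 10.9, 9.81 and 10.2 RPKM ventrally and at 38.4, 44.1 and 30 RPKM dorsally, and Lef1, a nuclear factor of the pathway, differed by -3.08. Tcf7l2, another nuclear factor, was at 3, 2.46 and 2.9 RPKM ventrally and at 22.9, 18.9 and 378 RPKM dorsally. That single value in dorsal midbrain 3 set the spread of the gene: the difference was -3.90 ± 1.05 with it (limma adjusted p = 0.025, lost without any 1 ventral library) and -2.53 without it (limma adjusted p = 1e-06).

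For FGF signalling, 6 of 12 tested genes (50%) were higher ventrally and 3 (25%) lower, against 16.8% and 22.8% of all genes. The share lower was thus near the background. Fgf15, a ligand of the dorsal and lateral neural tube, was at 0.291, 0.626 and 0.195 RPKM in the ventral libraries and at 19.6, 18.6 and 45.2 RPKM in the dorsal ones, a difference of -4.29. Fgfr2 and Fgfr3 differed by -1.86 and -0.69. Genes induced by FGF signalling were higher ventrally, with Etv5 at 5.65, 5.63 and 6.7 RPKM against 1.06, 0.915 and 0.795 RPKM dorsally, and with Spry1, Spry2 and Dusp6 differing by 1.38, 1.10 and 0.83. For the BMP pathway 3 of 18 tested genes (16.7%) were higher and 7 (38.9%) lower, so the share higher was at the background. The roof plate ligand Gdf7 was at 0, 0.228 and 0 RPKM ventrally and at 2.08, 3.7 and 1.85 RPKM dorsally. The BMP targets Id2 and Id1 differed by -1.96 and -1.31, while their relatives Id3 and Id4 were called higher ventrally. The call of Id3 was lost without any 1 ventral library or without dorsal midbrain 1. That of Id4 was lost without ventral midbrain 2 or ventral midbrain 3. Leaving out any 1 of ventral midbrain 2, ventral midbrain 3 and dorsal midbrain 2 brought the 7 lower to 3, and leaving out dorsal midbrain 1 brought it to 4. The 3 higher became 1 without ventral midbrain 2 or ventral midbrain 3.

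In the Notch pathway 6 of 21 tested members (28.6%) were higher and 5 (23.8%) lower, against 16.8% and 22.8% of all genes, so the share of lower members was near the background. The effector Hey1, known in the floor plate, was at 45.4, 39.5 and 39.3 RPKM in the ventral libraries and at 13.1, 10.3 and 8.61 RPKM in the dorsal ones (1.88 ± 0.14, limma adjusted p = 0.00019). Hes5, the effector of most neural progenitors, was at 57.7, 48.9 and 44 RPKM ventrally and at 148, 151 and 68.9 RPKM dorsally, a call lost without any 1 of ventral midbrain 2, ventral midbrain 3, dorsal midbrain 1 and dorsal midbrain 2. Nrarp differed by -0.93. The number of lower members was 9 without dorsal midbrain 3, 3 without ventral midbrain 1 and 1 without any of the other 4. Of 13 tested proneural and early neuron factors, 3 (23.1%) were higher and 7 (53.8%) lower, against the same backgrounds. The 3 became 1 without any 1 of ventral midbrain 2, ventral midbrain 3, dorsal midbrain 1 and dorsal midbrain 2. Neurog1 was at 1.63, 1.16 and 1.26 RPKM ventrally and at 18.9, 14.3 and 11.9 RPKM dorsally. Neurog2, which acts in dopaminergic neurogenesis, was higher ventrally by 0.87, a call lost without any 1 of the libraries other than dorsal midbrain 3.

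Genes of cell division were lower in the ventral midbrain. All 17 tested genes of mitosis and 17 of 19 genes of DNA replication (89.5%) were lower, against 22.8% of all genes. Their median differences were -1.48 and -1.35. Top2a was at 39.2, 24.5 and 24.7 RPKM in the ventral libraries and at 145, 125 and 62.8 RPKM in the dorsal ones (-1.82 ± 0.33, limma adjusted p = 0.0073). Mki67, the antigen used to count cycling cells, was at 25, 15.2 and 16.6 RPKM ventrally and at 75.8, 63.2 and 33.6 RPKM dorsally, a call lost without ventral midbrain 2. The replication gene Rrm2 was at 23.9, 16 and 14.7 RPKM ventrally and at 110, 99 and 37.1 RPKM dorsally, and Mcm3 differed by -1.73. Summed over the mitosis list, the ventral libraries held 259, 169 and 170 RPKM and the dorsal ones 805, 724 and 367 RPKM. Ventral midbrain 1 was thus the highest ventral library and dorsal midbrain 3 the lowest dorsal one. The groups kept apart in this sum, and the mitosis count of 17 was 9 without ventral midbrain 2, 10 without ventral midbrain 3 and 17 without dorsal midbrain 3. Ccnd1, the G1 cyclin, was much lower in dorsal midbrain 3 than in dorsal midbrain 1 and 2. It was at 23.5, 19 and 18.4 RPKM ventrally and at 284, 298 and 51.2 RPKM dorsally (-2.96 ± 0.63, limma adjusted p = 0.013, lost without ventral midbrain 2 or ventral midbrain 3). Sox1 (-1.18) and Sox3 (-1.88), factors of neural progenitors, were lower as well.

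Not every progenitor gene followed the cycle genes. Of 20 genes of progenitors and radial glia, 5 (25%) were higher and 9 (45%) lower, against 16.8% and 22.8% of all genes. The 9 became 5 without ventral midbrain 2 or ventral midbrain 3. Slc1a3, the glutamate transporter of radial glia, was at 71.3, 72.5 and 80 RPKM in the ventral libraries and at 9.67, 8.75 and 15.7 RPKM in the dorsal ones (2.65 ± 0.19, limma adjusted p = 0.00015). Prom1 and Fabp7 were higher by 1.59 and 1.09, while Sox2, shared by all neural progenitors, was not called, at 57.4, 55.5 and 55.3 RPKM ventrally and 50.7, 50.1 and 34.2 RPKM dorsally. Sox2 was called higher, by 0.15, without dorsal midbrain 3 (limma adjusted p = 0.026). The growth factor Ptn ran opposite to these, at 14.5, 16.5 and 13.8 RPKM ventrally and 132, 168 and 127 RPKM dorsally.

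Of 23 general neuronal genes, 13 (56.5%) were higher ventrally and 1 (4.35%) was lower, against 16.8% and 22.8% of all genes. Their median difference was 0.58. The count depended on single libraries: 20 were higher without dorsal midbrain 3, 8 without dorsal midbrain 1, 7 without ventral midbrain 3 and 6 without ventral midbrain 2 or dorsal midbrain 2. The calls of the neurofilament genes Nefl and Nefm held without any 1 library. Nefl was at 277, 283 and 251 RPKM in the ventral libraries and at 54.4, 62.1 and 51.4 RPKM in the dorsal ones (2.26 ± 0.09, limma adjusted p = 8.3e-06), and Nefm differed by 1.82. Mapt, which encodes tau, was at 183, 231 and 217 RPKM ventrally and 56, 69.6 and 128 RPKM dorsally. Tubb3, the neuronal tubulin, was not called, at 1062, 1159 and 1104 RPKM ventrally and 1026, 1155 and 1194 RPKM dorsally (-0.02 ± 0.09). The exception that was lower, the adhesion molecule Cntn2, was at 24.6, 18.2 and 19.3 RPKM ventrally and at 119, 119 and 89.6 RPKM dorsally. Of 14 neuropeptide and secretory granule genes 6 (42.9%) were higher and 1 (7.14%) lower, against the same shares of all genes. Among the higher ones were Scg2 by 3.86 and Chgb by 2.26, and without ventral midbrain 2 the 6 became 3. Pnoc, the precursor of nociceptin, was the one called lower, at 0.884, 1.89 and 1.61 RPKM ventrally and 24, 32.7 and 29.8 RPKM dorsally.

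Midline guidance cues were strongly ventral. Ntn1, which encodes netrin-1 and attracts commissural axons to the floor plate, was at 229, 237 and 253 RPKM in the ventral libraries and at 3.09, 2.12 and 6.86 RPKM in the dorsal ones (5.70 ± 0.31, limma adjusted p = 3.9e-05). The midline repellents followed, with Slit2 at 132, 117 and 128 RPKM against 13.5, 12.4 and 17.3 RPKM dorsally, and with Slit3 and Slit1 differing by 2.93 and 1.55. Of their receptors Robo3, which governs midline crossing, was higher by 2.01, Robo1 was lower (-0.44, lost without ventral midbrain 2 or ventral midbrain 3) and Robo2 was not called (-0.39), or called lower at -0.49 without dorsal midbrain 3 (limma adjusted p = 0.009). The netrin receptor Dcc was lower, at 35.2, 35.1 and 36 RPKM ventrally and 61, 62.9 and 72.5 RPKM dorsally. Over the 19 genes of these families, 7 (36.8%) were higher and 4 (21.1%) lower, against 16.8% and 22.8% of all genes. The share lower was thus near the background. Without dorsal midbrain 3 the counts were 8 and 7.

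Eph receptors and ephrins, which map retinal axons onto the tectum, gave 3 higher (14.3%) and 7 lower (33.3%) of 21. Of all genes tested 16.8% were higher and 22.8% lower, so the share higher was near the background. Without dorsal midbrain 3 the counts were 6 higher and 9 lower, and 4 were lower without ventral midbrain 2 or ventral midbrain 3. Epha8 was at 1.75, 1.91 and 1.99 RPKM in the ventral libraries and at 14.7, 15 and 16.5 RPKM in the dorsal ones, and Epha2 and Efna2 differed by -2.61 and -1.84. Efna5, a graded tectal ephrin, was at 10.1, 10.1 and 10.4 RPKM ventrally and was not called, while dorsal midbrain 3 held 7.39 RPKM beside 20.5 and 21.7 RPKM in dorsal midbrain 1 and 2. It was called lower without dorsal midbrain 3 (-0.98, limma adjusted p = 8.4e-06). The ligand Efnb3, known at the midline, was higher ventrally by 1.38. Semaphorins, plexins and neuropilins gave 14 higher (48.3%) and 4 lower (13.8%) of 29. Nrp2 led them, at 45, 44.4 and 44 RPKM ventrally and 3.51, 4.4 and 5.83 RPKM dorsally, followed by Plxna4 (1.78) and Plxna2 (1.54). The 14 became 21 without dorsal midbrain 3, 9 without ventral midbrain 1 and 8 without ventral midbrain 2, ventral midbrain 3 or dorsal midbrain 2, and the 4 became 0 without ventral midbrain 2, 1 without ventral midbrain 3 or dorsal midbrain 2 and 2 without ventral midbrain 1. Among cadherins and protocadherins 12 of 19 (63.2%) were higher and 2 (10.5%) lower, with Pcdh8 (1.85) and Cdh6 (1.73) at one end and Pcdh18 (-1.62) and Cdh8 (-1.23) at the other.

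Genes of ion channels were called higher more often than lower. Potassium channel genes gave 20 higher (46.5%) and 6 lower (14%) of 43 tested, against 16.8% and 22.8% of all genes. Kcnk9, a leak channel, was at 41.4, 43.3 and 41.5 RPKM in the ventral libraries and at 0.528, 0.311 and 0.331 RPKM in the dorsal ones (4.96 ± 0.09, limma adjusted p = 6.4e-07), and was the 1 channel gene among the 15 largest ventral differences. Kcnab1 and Kcnip1, auxiliary subunits, differed by 2.60 and 2.32. Sodium and calcium channel genes gave 15 higher (57.7%) and none lower of 26, led by the sodium channel subunit Scn3b (2.03). That count was 22 without dorsal midbrain 3, 8 without ventral midbrain 2 and 9 without any 1 of ventral midbrain 3, dorsal midbrain 1 and dorsal midbrain 2. Glutamate receptor genes gave 12 higher (57.1%) and 3 lower (14.3%) of 21, with Grin2d higher by 1.72 and Grm3 lower at -1.28. The 12 fell to 4 without ventral midbrain 2 or dorsal midbrain 2, 5 without ventral midbrain 3 and 7 without dorsal midbrain 1.

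Genes of retinoid and insulin-like growth factor signalling divided by member. Of 12 retinoid genes 2 (16.7%) were higher and 5 (41.7%) lower, against 16.8% and 22.8% of all genes, so the share higher was at the background. The receptor Rxrg was higher by 2.46 and the binding protein Crabp2 lower at -2.65. The 5 became 2 without ventral midbrain 2, ventral midbrain 3 or dorsal midbrain 2 and 3 without ventral midbrain 1 or dorsal midbrain 1. Of 12 genes of insulin-like growth factors, their binding proteins and related mRNA binders, 4 (33.3%) were higher and 6 (50%) lower. Igfbp5, a secreted binding protein, was at 140, 126 and 125 RPKM in the ventral libraries and at 20.2, 19 and 36.5 RPKM in the dorsal ones, while Igfbpl1 and Igfbp4 differed by -1.43 and -1.10. The 4 higher became 2 without ventral midbrain 2, ventral midbrain 3 or dorsal midbrain 1.

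**Figure D4:**
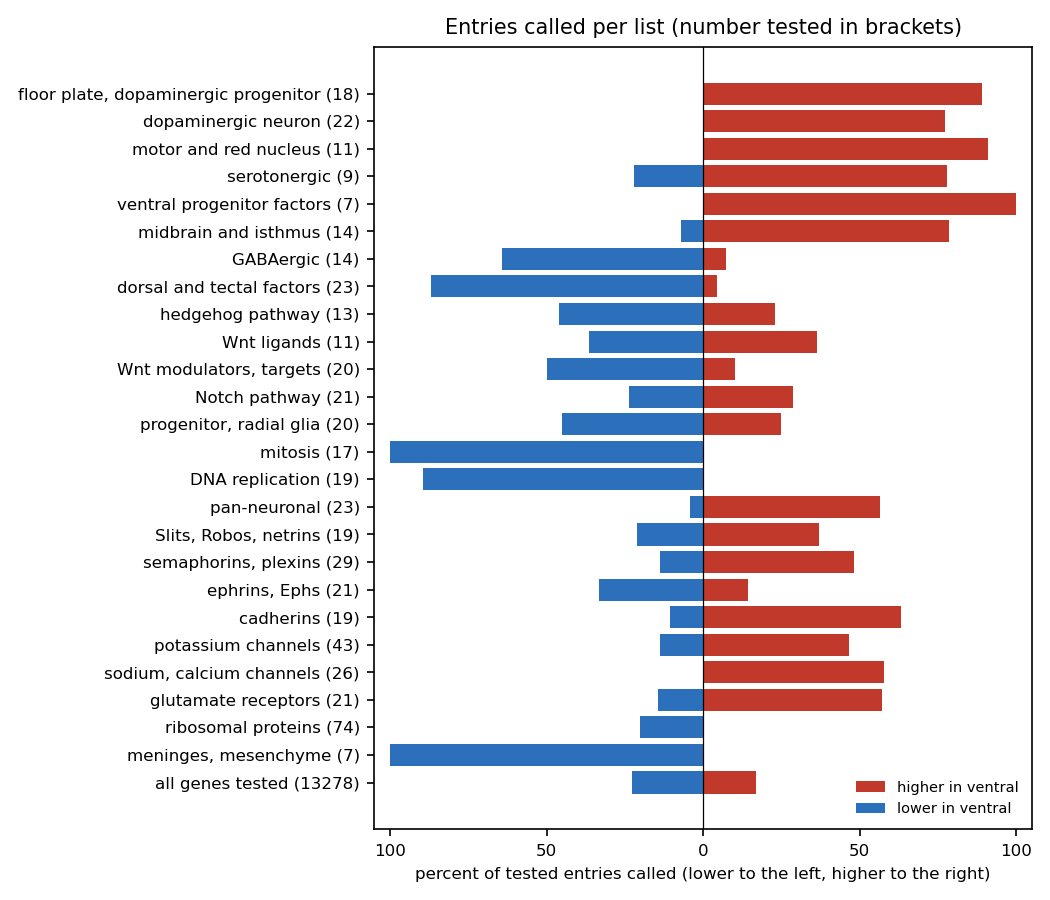
Share of the tested genes of each list that were called higher (red, to the right) or lower (blue, to the left) in the ventral midbrain, with the number tested in brackets. The lowest bar gives all 13278 genes tested, at 16.8% higher and 22.8% lower. Lists of ventral cell types reach to the right and dorsal factors, mitosis and meninges to the left.

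Markers of some cells from outside the neural tube differed between the dissections too. All 7 tested genes of meninges and mesenchyme were lower ventrally, against 22.8% of all genes, with a median difference of -3.29. Lum, a proteoglycan of connective tissue, was at 0 in all ventral libraries and at 11.1, 10.5 and 5.66 RPKM in the dorsal ones. Col1a1 was at 0.0693, 0.213 and 0.116 RPKM ventrally and at 21.7, 22.5 and 11.1 RPKM dorsally. The summed level of the 11 listed genes was 7.23 to 7.97 RPKM ventrally and 68.3 to 129 RPKM dorsally. Further genes of connective tissue were lower, such as Col3a1 (-3.61), Col6a1 (-2.12) and Igf2, a growth factor that meninges also make, which was at 13.3, 12.8 and 14.1 RPKM ventrally and 65.1, 67.9 and 41 RPKM dorsally. The part of meninges in these and in other dorsal genes was not tested. The macrophage gene Mrc1 was lower (-1.67), while of the other 10 tested genes of microglia and macrophages 9 were not called. Of 13 endothelial genes 1 (7.69%) was higher and 3 (23.1%) lower, against 16.8% and 22.8% of all genes, so the share lower was near the background. The counts were 1 and 7 without dorsal midbrain 3, and none was called without any 1 of the other libraries. Pericyte genes gave 3 higher (50%) and none lower of 6, against the same shares of all genes, or 1 lower without ventral midbrain 3.

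Counts for globin and ribosomal protein genes depended on the scaling and on single libraries. Of 11 erythroid entries, 4 (36.4%) were lower, against 22.8% of all genes. The count was 1 under median-ratio scaling, 11 without dorsal midbrain 3 and 0 without any other library. Their summed level was 4521 to 5096 RPKM in the ventral libraries and 5711 to 10459 RPKM in the dorsal ones. The duplicated alpha-globin entries, Hba-a1 and Hba-a2, share reads and are uncertain. Of 74 ribosomal protein genes, 15 (20.3%) were lower, close to the 22.8% of all genes tested. The number was 4 under median-ratio scaling, 72 without dorsal midbrain 3 and at most 3 without any other library, and the median difference was -0.27. Ttr, the main product of the choroid plexus, was at most 0.525 RPKM in any library. The 2 of 8 choroid plexus genes that were tested were both higher ventrally, with a median difference of 2.04, and the 8 genes summed to 32.4 to 34 RPKM in the ventral libraries and 8.99 to 9.71 RPKM in the dorsal ones.

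Dorsal midbrain 3 differed from the other dorsal libraries in named genes as well as in number. In it, 193 genes lay at least 1 log2 unit above the mean of dorsal midbrain 1 and 2 and 169 lay as far below, while dorsal midbrain 1 and 2 were that far apart in 26 genes. Pax6, a paired-box factor of the forebrain that borders on the midbrain, was at 0.675, 1.02 and 1.38 RPKM in the ventral libraries and at 1.81, 0.194 and 44.9 RPKM in the dorsal ones. Esrrb, an orphan nuclear receptor, was at 20.7 RPKM in dorsal midbrain 3 and at most 1.42 RPKM elsewhere among the 6. Together with Tcf7l2 and Nr4a2 these were the 4 genes farthest above the pair. Cartpt, which encodes a neuropeptide, was at 47.1, 35.6 and 36.4 RPKM ventrally and at 2.48, 1.34 and 19.7 RPKM dorsally, so its dorsal midbrain 3 value lay between the groups. Its difference of 2.87 (limma adjusted p = 0.023) was no longer called without any 1 of the other 5 libraries, and was 3.82 without dorsal midbrain 3.

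Below the pair, after Xist and Tsix, stood Meis2, Pou4f2, Ccnd1, Nxph4 and Prph. Pou4f2, a POU factor of retinal ganglion and tectal neurons, was at 0.837, 2.34 and 0.87 RPKM in the ventral libraries and at 10.7, 14.8 and 1.28 RPKM in the dorsal ones, and was not called (-1.73, limma adjusted p = 0.087). It was called without dorsal midbrain 3 (-2.59, limma adjusted p = 8.2e-05). In dorsal midbrain 3 the dorsal factors Zic1, Pax3, Lhx9 and Tfap2d stood at 146, 31, 40.5 and 47.7 RPKM, and the floor plate genes Foxa2, Shh and Corin were at or below 0.0626 RPKM. These genes do not stand for their whole lists. Of 18 tested floor plate and progenitor genes, dorsal midbrain 3 was above both other dorsal libraries in 11 and below both in 5. Of 23 tested dorsal and tectal factors it was above both in 6 and below both in 16. For all genes tested the shares were 40.7% above and 44.9% below. Of the 2235 genes called higher ventrally, 1579 (70.6%) had dorsal midbrain 3 above both of its fellow libraries, against 40.7% of all genes tested. Of the 3031 called lower, 2446 (80.7%) had it below both, against 44.9% of all. Why this library stands apart was not tested.

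**Figure D5:**
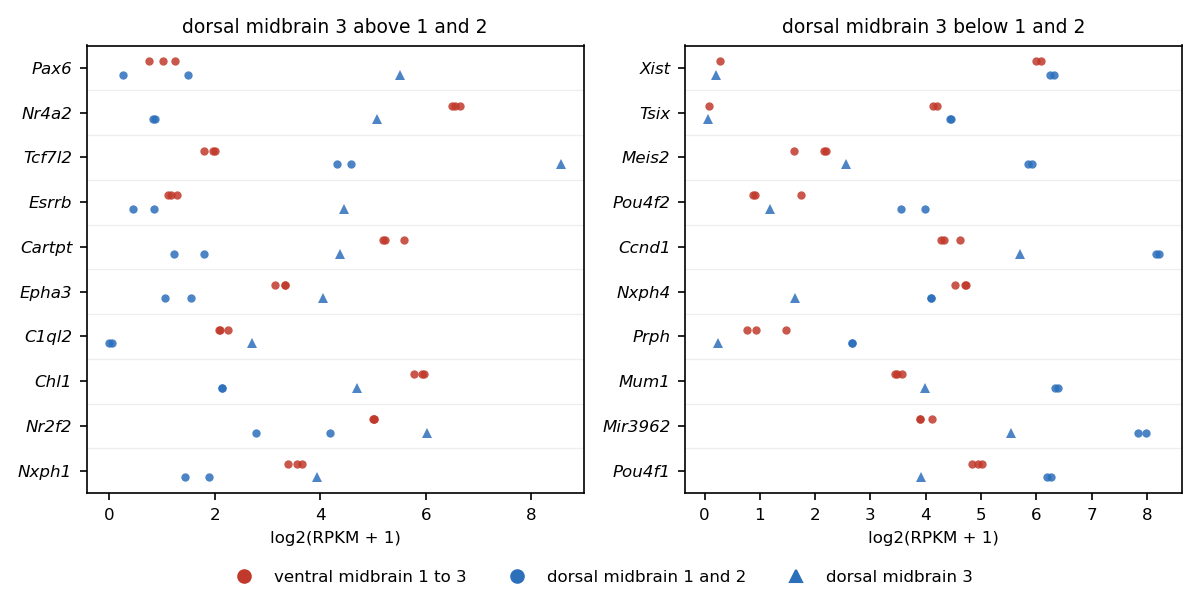
Levels, as log2(RPKM + 1), of the 10 genes in which dorsal midbrain 3 (triangle) lay farthest above (left) and below (right) the mean of dorsal midbrain 1 and 2 (blue circles), with the ventral libraries as red circles above them. In Meis2 and Pou4f2 the triangle sits near the ventral points, and in Pax6, Tcf7l2 and Esrrb it lies above all the other 5.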

How the data were processed

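RNA was sequenced from 15 libraries of the E12.5 mouse brain, 3 per region, and the 3 ventral and 3 dorsal midbrain libraries were compared. The authors deposited RPKM values per gene symbol; Bowtie and build mm9 are named in the submitters' processing notes, while their versions, the counting rules, strand use and the gene annotation are not given in the sources. The 24264 genes were filtered to those with at least 1 RPKM in at least 3 of the 6 libraries, log2-transformed with a pseudocount of 1 and tested with limma 3.58.1 (trended variance, R 4.3.3) after a check on simulated data, with Benjamini-Hochberg adjustment over 13278 genes. Low values step by whole reads: of 16612 genes detected in 10 or more libraries, 16595 (99.9%) gave whole reads throughout (tolerance 0.02 to 0.15 reads). These reads gave the depths and a limma-voom fit, which called 5105 genes. Named genes are the 15 largest differences each way among called genes with groups that do not overlap and a mean of at least 5 RPKM in the higher one, up to 8 called members per gene list, and others that a sentence needed, chosen after their values were seen. The members and gene lists were chosen with earlier results of these data known. Promoters are from RefSeq, build GRCm38.p6, and share no coordinates with the deposited build. Alternatives covered the pseudocount, filter, scaling, samples fitted, replicate block, variance trend and each library left out. Some members of the gene lists count in the totals but are not reported here by name.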

Additional observations from a re-analysis of the deposited data

How the results depend on the processing

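Of the 5266 genes called (2235 higher and 3031 lower in the ventral midbrain), a single fit of all 15 libraries called 3212, with 1525 higher and 1687 lower. Leaving out 1 library gave 2456 (without ventral midbrain 2) to 7958 (without dorsal midbrain 3) called, 1272 (without ventral midbrain 3) to 3497 (without dorsal midbrain 3) higher and 1183 (without ventral midbrain 2) to 4461 (without dorsal midbrain 3) lower. Without dorsal midbrain 3, 5256 of the 5266 genes were called again. Calls also numbered 3676 without ventral midbrain 1, 2473 without ventral midbrain 3, 3096 without dorsal midbrain 1 and 2669 without dorsal midbrain 2. Every other alternative gave 4032 (filter at 5 RPKM, 9767 genes tested) to 5457 calls. Under median-ratio scaling 51.4% of calls were higher, against 42.4% as deposited. No called gene among the 734 of the lists and rankings changed direction under any alternative run. Fitting all 15 libraries lost the calls of 122 of these and leaving out ventral midbrain 2 lost those of 144; the causes were not tested. With the replicate number as a block, 5457 genes were called. Deviations of same-numbered libraries correlated at 0.418, 0.0132 and 0.264. For ventral midbrain 1 and 3 these were the highest values, while ventral midbrain 2 correlated best with dorsal midbrain 3 (0.146). Xist was near 0 in library 3 of both groups, at 0.217 RPKM ventrally and 0.154 RPKM dorsally, and high in libraries 1 and 2 of both. The labels name no pairing, so the main fit used none. Whether the numbers pair the samples was not tested. In a gene of median length 3 reads correspond to at most 0.115 RPKM, and differences between values of so few reads were not detectable at this depth.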
